A study of Mus musculus with 22 samples.

Results

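Upper glycolysis was followed through 10 genes, whose rows were picked by an exact match of the gene symbol: the hexokinases Hk1 and Hk2, the isomerase Gpi1, the phosphofructokinases Pfkl, Pfkm and Pfkp, and the bifunctional enzymes Pfkfb1, Pfkfb2, Pfkfb3 and Pfkfb4. All 10 were found in each table, among 34866 genes of the culture tables, 23911 of the cartilage table and 40756 genes in all. The study took 22 RNA-seq samples from mice in which the maintenance DNA methyltransferase gene Dnmt1 was floxed. Controls carried the genotype Dnmt1 flox, and the conditional knockout (cKO) the genotype Prrx1-Cre;Dnmt1 flox/flox. Prrx1-Cre acts in limb mesenchyme, which also gives rise to limb tissues other than cartilage, and Dnmt1 flox is shared by both genotypes. Primary chondrocytes from knee articular cartilage of pups at postnatal day 3 to 5 were sampled untreated, here called day 0 (3 control and 3 cKO), and after 3 days of BMP2, a growth factor that drives cartilage differentiation, at 100 ng/µl as the labels give it (4 control and 4 cKO). Cartilage of pups at postnatal day 5, cleared of connective tissue with collagenase, gave 4 samples of the genotype flox and 4 of the genotype cKO, with 2 males and 2 females in each. The culture samples are labelled as biological replicates. Whether each came from its own animal is not given in the sources used here, so the tests measure the spread between these samples.

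Glycolysis starts when a hexokinase traps glucose in the cell as glucose 6-phosphate. Glucose phosphate isomerase turns this into fructose 6-phosphate, and phosphofructokinase adds the next phosphate in the committed step of the pathway. The PFKFB enzymes make and break down fructose 2,6-bisphosphate, the strongest known activator of phosphofructokinase, and cartilage, which has no vessels, relies heavily on glycolysis for its ATP.

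Levels are given as CPM, read counts scaled to library size by TMM, with 1 common scale for the 14 cultures and a separate one for cartilage. A day 0 library held 41749327 to 51741478 counts, a day 3 library 14434197 to 18918714, and a cartilage library 1100198 to 1888896, so that 3 counts, the floor of detection, stand for 0.0580 to 0.0719, 0.159 to 0.208 and 1.59 to 2.73 CPM. Dnmt1 itself was lower in every cKO group, by a log2 fold change of -2.44 ± 0.07 (SE) at day 0, -1.41 ± 0.31 at day 3 and -1.66 ± 0.20 in cartilage, and the genotypes did not overlap. All 8 chondrocyte markers were detected in every group, but at day 0 their summed level ran from 146083 to 154287 CPM in control and from 53783 to 65173 CPM in cKO cultures. Skeletal muscle markers summed to 12.4 to 13.8 CPM in control and 54.6 to 57.1 CPM in cKO at day 0, without overlap. Myod1 was at 0 in all controls and Myl1 at 0 in all cKO cultures. Osteoclast markers summed to 165.2 to 169.8 CPM in control and 76.0 to 90.9 CPM in cKO at day 0, also without overlap. The single osteoclast markers did not all follow this sum. Of the 4 tested at day 0, Ctsk fell, Mmp9 rose, and Acp5 and Ocstamp did not pass. DESeq2 called 1 of these lower and 0 higher. At day 3 the chondrocyte sum ran from 96001 to 116784 CPM in control and from 12465 to 17459 CPM in cKO replicates 1 to 3, and it was 1670 CPM in cKO replicate 4. That library stood apart: the chi-square statistic of its counts against another library of the group, divided by the degrees of freedom, was 123.9 or more, whereas no other replicate pair of the study passed 30.2. The 10 skeletal muscle markers summed to 2.64 to 3.04 CPM in control day 3 cultures, to 1388 to 2271 CPM in cKO replicates 1 to 3 and to 155.7 CPM in cKO replicate 4. In bulk samples, a change in the mix of cells and a change of RNA per cell cannot be told apart, and the part of these markers in the results on glycolysis was not tested.

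Promoter windows are shown for 3 genes that carry the pattern: Hk2 and Pfkfb3, which fell in untreated cKO cultures, and Pfkp, which rose there and at day 3. The runs come from RefSeq on the build GRCm38.p6, cover up to 250 bases before a listed transcription start on the minus strand, and leave out any base inside an annotated exon. Capitals mark ACGTG on either strand (so also CACGT), the core recognised by hypoxia-inducible factors (HIF). A palindromic CACGTG counts as 2 matches.

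Hk2, chr6:82774455-82774704: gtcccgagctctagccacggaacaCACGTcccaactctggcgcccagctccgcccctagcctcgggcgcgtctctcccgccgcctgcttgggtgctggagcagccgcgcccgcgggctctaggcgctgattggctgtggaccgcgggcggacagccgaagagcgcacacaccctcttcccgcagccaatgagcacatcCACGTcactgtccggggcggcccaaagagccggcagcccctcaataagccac
Pfkfb3, chr2:11502102-11502340: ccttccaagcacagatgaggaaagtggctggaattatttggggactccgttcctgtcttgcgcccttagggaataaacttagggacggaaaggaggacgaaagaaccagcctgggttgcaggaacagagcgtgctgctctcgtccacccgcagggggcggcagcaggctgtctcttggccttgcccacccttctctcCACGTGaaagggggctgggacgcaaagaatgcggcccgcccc
Pfkp, chr13:6648778-6649021: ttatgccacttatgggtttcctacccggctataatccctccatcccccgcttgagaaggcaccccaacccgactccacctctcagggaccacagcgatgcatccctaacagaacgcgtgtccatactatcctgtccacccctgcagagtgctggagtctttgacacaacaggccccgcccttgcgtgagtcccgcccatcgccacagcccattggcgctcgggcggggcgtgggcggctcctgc

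The Hk2 run holds 2 matches, both CACGT, and 25 CpG, the neighbouring bases at which Dnmt1 maintains methylation where it is already present. The Pfkfb3 run, at the inner of 2 listed starts, holds a single CACGTG and 12 CpG. The Pfkp run of 244 bases holds no match and 15 CpG. Over all 32851 promoter windows of 250 bases, 16.6% held the motif and the median was 6 CpG. All 10 genes matched the RefSeq table, with 20 listed starts, and 7 of these windows, in Hk2, Pfkm, Pfkfb2 and Pfkfb3 (4 genes), held the motif. Hk1 and Pfkl, which also fell in untreated cKO cultures, held no match, and Pfkfb2, which held it, did not pass there. Of the 4 genes with the motif, Hk2, Pfkm and Pfkfb3 fell there. Gpi1 and Pfkp, which rose there, held no match. Whether the motif goes with the direction of change was not tested. These matches are descriptions of letters, and neither methylation nor binding was measured here.

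In untreated cKO cultures 7 of the 10 genes passed the test at an adjusted p under 0.05, against 64.5% of the 15530 genes tested. Of these, 5 fell (Hk1, Hk2, Pfkl, Pfkm and Pfkfb3) and 2 rose (Gpi1 and Pfkp), against 31.6% and 33% of all genes. The genotypes did not overlap for 8 of the 10, against 70.4%. The median log2 fold change was -0.23 for the 10 genes and 0.01 for all genes. After 3 days of BMP2, 3 of 10 genes passed, against 48.1% of 13924 genes: 3 rose in cKO (Gpi1, Pfkp and Pfkfb3) and 0 fell, where 25.5% and 22.6% of all genes did. With an unadjusted p under 0.05 there were 5, and DESeq2 called 3 higher and 1 lower. The genotypes did not overlap for 4 of 10 genes there, against 47.9% of all genes, and the medians were 0.14 and 0.01. In cartilage 7 of the 10 genes had enough counts to be tested, and 2 of them passed, against 6.19% of 8793 genes. Both fell (Hk1 and Pfkfb3), against 3.04% lower and 3.15% higher of all genes. DESeq2 called 0 of the 7, and 357 of all genes. Of the 7, 5 had an unadjusted p under 0.05. Of these 7 genes 3 did not overlap between genotypes, against 13.5% of all genes, and the medians were -0.55 and 0.01. At day 0 the share of these genes called was thus close to that of all genes, and at day 3 it was below it. Here and below, shares of all genes called are by edgeR at an adjusted p under 0.05. Counts at an unadjusted p, or by DESeq2, have no such share beside them.

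**Figure D1:**
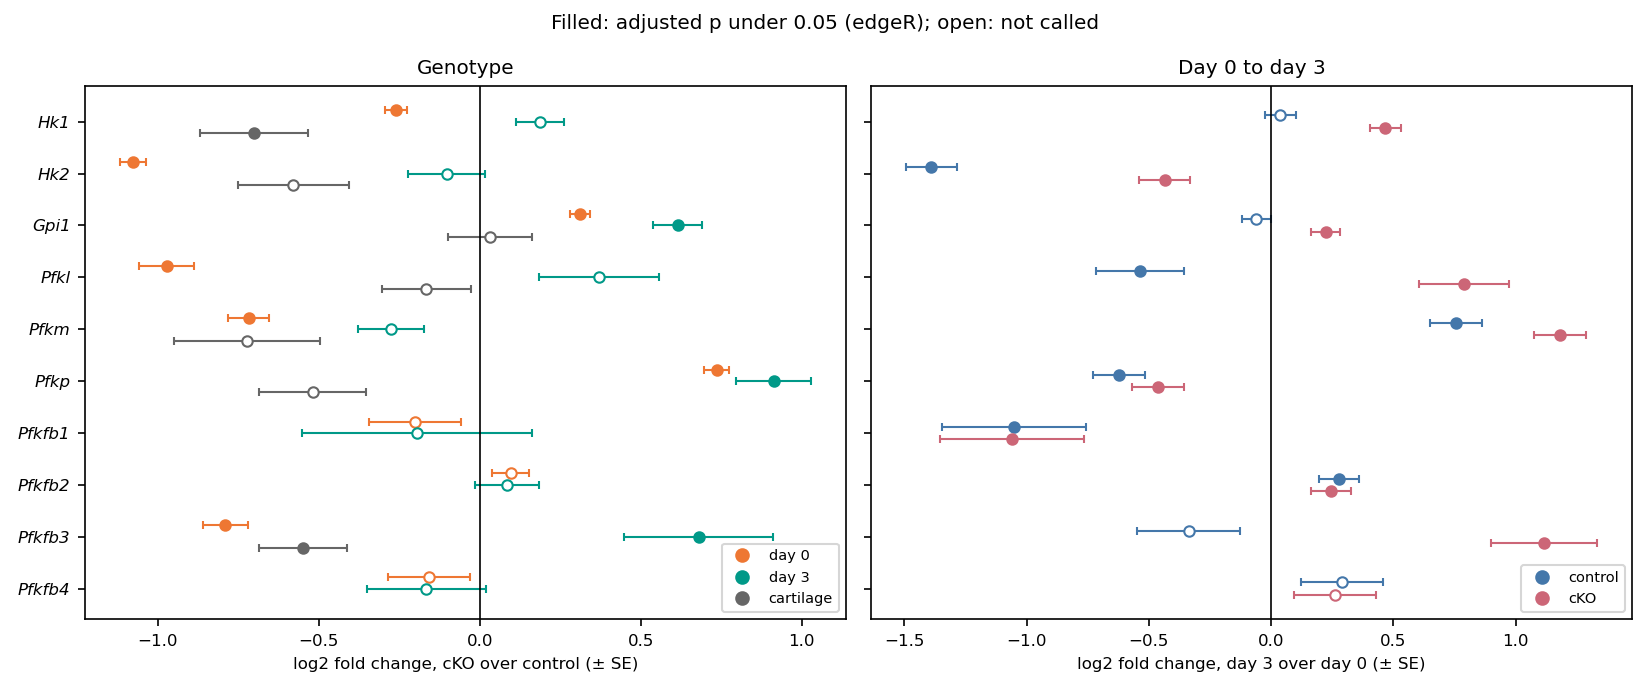
Log2 fold changes (x axis) with standard errors for each gene (y axis), cKO over control at day 0, at day 3 and in cartilage on the left, and day 3 over day 0 within each genotype on the right; filled points passed at an adjusted p under 0.05. Hk2, Pfkl, Pfkm and Pfkfb3 lie left of 0 at day 0, and Gpi1 and Pfkp lie right of 0 on both days. On the right panel the cKO points lie to the right of the control points for Hk1, Hk2, Gpi1, Pfkl and Pfkfb3. They also do for Pfkm and Pfkp, where the difference did not pass.

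Hk2, the inducible hexokinase of growing and hypoxic tissues, showed the largest fall of the 10 genes at day 0. The gene lies at chr6:82725025-82774454 on the build GRCm38. Its level was 120.1, 124 and 128 CPM in the 3 control cultures and 60.6, 60.1 and 55.9 CPM in the 3 cKO cultures. Every cKO library was below every control library, and Hk2 fell by 1.08 ± 0.04 on the log2 scale (adjusted p = 7.0e-08). Day 3 gave 48.1, 45.1, 38.1 and 58.0 CPM in control and 46.7, 41.0, 43.7 and 42.8 CPM in cKO. The groups overlapped fully, with a log2 fold change of -0.10 ± 0.12 (adjusted p = 0.508). From day 0 to day 3 the Hk2 level fell by 1.39 ± 0.10 in control cultures and fell by 0.43 ± 0.10 in cKO cultures, both past the threshold. The genotype effect differed between the days by 0.96 ± 0.15 (adjusted p = 0.00124), with the larger drop in control.

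In cartilage the Hk2 level was 135, 155, 247 and 164 CPM in control and 84.8, 107, 105 and 171 CPM in cKO. One cKO female (replicate 4) lay inside the control range and the other 3 cKO samples below it. The log2 fold change was -0.58 ± 0.17 and did not pass (adjusted p = 0.0601). It passed at -0.72 without control replicate 4 (adjusted p = 0.0261) and at -0.75 without cKO replicate 4 (adjusted p = 0.0355), as well as without the low-count filter (-0.61, 0.00444) and in the estimated counts of the same libraries (-0.59, 0.0415).

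Hk1 (chr10:62268855-62379908), the hexokinase found in most tissues, moved less in the cultures. At day 0 it stood at 92.6, 87.8 and 90.2 CPM in control and at 74.5, 74.4 and 77.5 CPM in cKO, with no overlap, and fell by 0.26 ± 0.03 (adjusted p = 0.000119). The order was the opposite at day 3, with 81.2, 96.8, 98.7 and 93.7 CPM in control and 108, 103, 102 and 104 CPM in cKO. Again no library overlapped, but the difference of 0.19 ± 0.07 did not pass (adjusted p = 0.065), although it did in a fit of all 14 cultures (0.17, adjusted p = 0.0207). Between the days Hk1 did not pass in control (0.04 ± 0.06), rose in cKO by 0.47 ± 0.06, and the genotype effect differed by 0.43 ± 0.09 (adjusted p = 0.00592).

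Cartilage was the setting with the largest Hk1 difference. Control samples stood at 55.5, 64.8, 72.5 and 58.2 CPM and cKO samples at 47.9, 29.7, 37.5 and 37.9 CPM. All 4 cKO samples lay below all 4 control samples, and Hk1 fell by 0.70 ± 0.17 (adjusted p = 0.0221). The call was lost without control replicate 2 (-0.67, adjusted p = 0.0647), control replicate 3 (-0.63, 0.0612), cKO replicate 3 (-0.68, 0.053) or cKO replicate 4 (-0.70, 0.0653), and under DESeq2 (-0.71, 0.0544). The 4 control libraries were made in 1 library pool and the 4 cKO libraries in another, so pool and genotype cannot be told apart in any cartilage result. Markers also differed: 7 muscle markers summed to 14.9 to 20.2 CPM in control and 53.5 to 85.6 CPM in cKO, without overlap, and the 1 that could be tested, Tnnt3, rose by 2.87 ± 0.26. The 6 osteoclast markers listed summed to 126.1 to 456.7 CPM in control and 58.8 to 118.6 CPM in cKO, the 5 erythroid markers to 165.9 to 915.9 and 13.4 to 388.9 CPM, and the 8 chondrocyte markers to 67099 to 100095 and 32200 to 61376 CPM. Their part in the cartilage results was not tested.

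Gpi1 (chr7:34201330-34230336), the isomerase between the hexokinase and phosphofructokinase steps, was higher in cKO cultures on both days. Untreated control cultures held 175, 167 and 168 CPM and cKO cultures 214, 207 and 213 CPM, without overlap. Gpi1 rose by 0.31 ± 0.03 at day 0 (adjusted p = 2.0e-05). After BMP2 control cultures held 155, 165, 159 and 173 CPM and cKO cultures 246, 227, 264 and 249.6 CPM. Each cKO library was well above each control library, and the rise was 0.61 ± 0.07 (adjusted p = 0.000306). The day change was -0.06 ± 0.06 in control, which did not pass, and 0.22 ± 0.06 in cKO, which did. The difference between the days of 0.28 ± 0.08 passed narrowly (adjusted p = 0.0338) and did not pass without the low-count filter (0.29, adjusted p = 0.092). Of 14 fits that each left out 1 library it passed in 3, without day 3 control replicate 4, cKO replicate 2 or cKO replicate 4, and in the other 11 the adjusted p reached 0.0969, at 0.24 to 0.32 over all 14. Cartilage showed no such difference: 143, 131, 164 and 159 CPM in control and 169.6, 125, 153 and 161 CPM in cKO overlapped throughout, at 0.03 ± 0.13 (adjusted p = 0.909).

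The 3 phosphofructokinases moved apart from each other at day 0. Pfkl (chr10:77986947-78010083), the liver-type subunit, stood at 199, 204 and 207 CPM in control and 115, 109 and 87.4 CPM in cKO. Pfkm (chr15:98092589-98132451), the muscle-type subunit, stood at 56.1, 54.6 and 55.6 CPM in control and 34.5, 36.6 and 30.3 CPM in cKO. Both were lower in every cKO library, Pfkl by 0.97 ± 0.09 and Pfkm by 0.72 ± 0.06 on the log2 scale (adjusted p = 1.0e-05 and 1.2e-05). Pfkp (chr13:6579768-6648777), the platelet-type subunit, went the other way, from 58.1, 55.7 and 59.7 CPM in control to 100.2, 94.4 and 95.1 CPM in cKO. It was higher in every cKO library and rose by 0.74 ± 0.04 (adjusted p = 5.1e-07).

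At day 3 only Pfkp of the 3 subunits passed. It stood at 38.9, 34.2, 40.5 and 36.7 CPM in control and at 76.4, 75.5, 75.3 and 53.3 CPM in cKO. All cKO libraries lay above control, with replicate 4 lowest among them, and the rise was 0.91 ± 0.12 (adjusted p = 0.000391), or 1.01 without that library. Pfkl gave 135, 136, 116 and 174 CPM in control and 221, 186, 193 and 119 CPM in cKO, so that cKO replicates 1 to 3 lay above all controls and replicate 4 near the lowest control. Its difference of 0.37 ± 0.19 did not pass (adjusted p = 0.135), and without cKO replicate 4 Pfkl rose by 0.51 (adjusted p = 0.00769). Pfkm gave 87.5, 98.3, 94.4 and 94.6 CPM in control and 76.9, 82.4, 86.9 and 60.4 CPM in cKO. These did not overlap, yet the difference of -0.28 ± 0.10 did not pass (adjusted p = 0.0538). It passed without cKO replicate 4 (-0.19, adjusted p = 0.0326), without cKO replicate 3 (-0.34, 0.0347) and under DESeq2 (-0.28, 0.035). Leaving out cKO replicate 4, which was low in muscle and chondrocyte markers and in Dnmt1 and high in osteoclast markers, gave 4 genes higher and 1 lower at day 3 in place of 3 and 0. Of all genes, 7808 were called without that library, against 6693 with it.

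Over time, Pfkm rose in both genotypes, by 0.76 ± 0.11 in control and 1.18 ± 0.11 in cKO. Pfkp fell in both, by 0.62 ± 0.11 and 0.46 ± 0.11. Pfkl was the subunit whose path split: it fell in control by 0.54 ± 0.18 (adjusted p = 0.0214) and rose in cKO by 0.79 ± 0.18 (adjusted p = 0.00222). The call for the control fall was lost without control replicate 2 or 3 of day 0 (-0.54 and -0.53, adjusted p = 0.052 and 0.0564) or control replicate 3 of day 3 (-0.45, 0.0615). The genotype effect on Pfkl differed between the days by 1.33 ± 0.26 (adjusted p = 0.0044). For Pfkm and Pfkp this difference was 0.42 ± 0.15 and 0.16 ± 0.15 and did not pass, but both passed without cKO replicate 4 of day 3, at 0.52 (adjusted p = 0.00112) and 0.27 (adjusted p = 0.0225), and Pfkm passed under DESeq2 (0.42, adjusted p = 0.0256).

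In cartilage none of the subunits passed. Pfkm had 23.3, 18.8, 28.4 and 27.3 CPM in control and 10.9, 17.5, 12.5 and 18.1 CPM in cKO, without overlap, at -0.72 ± 0.23 (adjusted p = 0.0745). Pfkp had 89.3, 105, 132 and 79.8 CPM in control and 81.4, 63.0, 66.0 and 69.8 CPM in cKO, where 1 cKO sample reached into the control range, at -0.52 ± 0.17 (adjusted p = 0.0809). Pfkp thus had a negative value in tissue and a rise in both cultures, and this difference between tissue and culture was not tested. Pfkl ran from 87.5 to 111 CPM in control and from 74.3 to 101 CPM in cKO, at -0.17 ± 0.14 (adjusted p = 0.517). Without cKO replicate 2 the call for Pfkm was gained (-0.89, adjusted p = 0.038), and without control replicate 4 that for Pfkp (-0.67, adjusted p = 0.0286). Both passed without the low-count filter (-0.76 and -0.56, adjusted p = 0.0464 and 0.0249), and Pfkm in the estimated counts (-0.87, adjusted p = 0.0455). Pfkm rested on 13 to 53 counts per library, the fewest of the 7 genes tested.

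**Figure D2:**
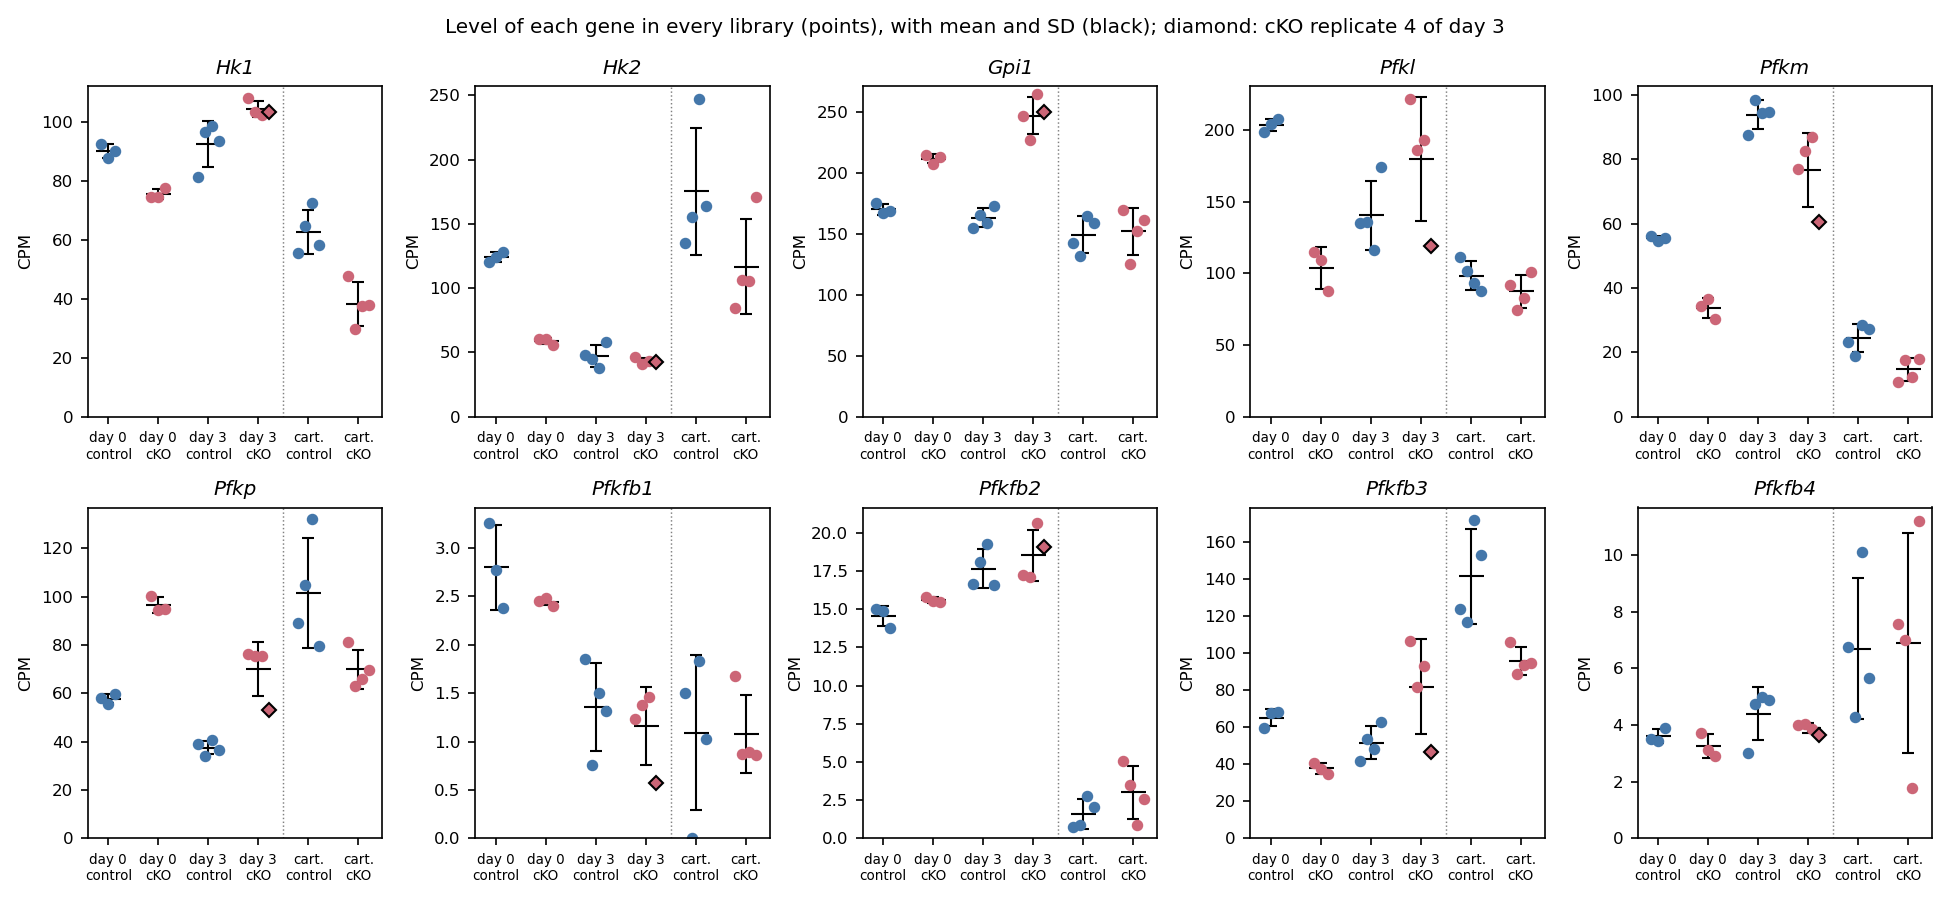
CPM (y axis, from 0) of each of the 10 genes in the 6 groups (x axis), with 1 point per library, the mean and the SD; cultures left and cartilage right of the dotted line, which are on separate scales. The diamond, cKO replicate 4 of day 3, sits below the other cKO day 3 libraries for Pfkl, Pfkm, Pfkp and Pfkfb3 but among them for Hk2 and Gpi1.

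Among the bifunctional enzymes only Pfkfb3 (chr2:11471433-11554077) passed in a genotype comparison, the form with the highest kinase over phosphatase activity and a known HIF target. Untreated control cultures had 59.6, 67.7 and 67.9 CPM and cKO cultures 40.8, 37.4 and 34.9 CPM. All cKO libraries were lower, and Pfkfb3 fell by 0.79 ± 0.07 (adjusted p = 1.0e-05). At day 3 the direction was the opposite, with 41.5, 53.5, 48.3 and 62.5 CPM in control and 106, 81.4, 92.8 and 46.6 CPM in cKO. Replicates 1 to 3 of cKO lay above every control and replicate 4 inside the control range, and the rise of 0.68 ± 0.23 passed (adjusted p = 0.0387). This call rested on the choice of libraries. It was lost without control replicate 1, 2 or 3 (0.58, 0.69 and 0.65, adjusted p = 0.0999, 0.0773 and 0.0889) or cKO replicate 1, 2 or 3 (0.53, 0.69 and 0.62, adjusted p = 0.1002, 0.0703 and 0.0879). Without cKO replicate 4 it was larger, at 0.86 (adjusted p = 0.000733).

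Pfkfb3 had the largest difference of genotype effects of the 10 genes, 1.45 ± 0.30 (adjusted p = 0.00646). In control its day change was -0.34 ± 0.21 and did not pass, except without cKO replicate 4 of day 3 (adjusted p = 0.0228), while in cKO it rose by 1.12 ± 0.22 (adjusted p = 0.000655). Cartilage followed the untreated cultures in sign, with 124, 117, 172 and 153 CPM in control and 106, 88.3, 93.7 and 94.8 CPM in cKO. No cKO sample reached the control range, and Pfkfb3 fell by 0.55 ± 0.14 (adjusted p = 0.0272). As for Hk1, the call was lost when some single libraries were left out: control replicate 3 (-0.48, adjusted p = 0.0792), control replicate 4 (-0.56, 0.0536), cKO replicate 3 (-0.49, 0.0738) and cKO replicate 4 (-0.51, 0.0957). DESeq2 gave -0.55 (adjusted p = 0.0526).

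The other 3 PFKFB genes were low in every setting and passed in no genotype comparison. Pfkfb2 (chr1:130689182-130729253), the heart-type form, ran from 13.8 to 15.0 CPM in control and 15.4 to 15.8 CPM in cKO at day 0, and from 16.6 to 19.3 and 17.1 to 20.7 CPM at day 3. Its differences were 0.10 ± 0.06 and 0.08 ± 0.10 (adjusted p = 0.178 and 0.506), although the day 0 groups did not overlap. Pfkfb4 (chr9:108991778-109032228) lay between 2.91 and 4.98 CPM in all cultures, with differences of -0.16 ± 0.13 and -0.17 ± 0.18. Pfkfb1 (chrX:150588229-150643878), the liver-type form, lay between 0.577 and 3.26 CPM, with differences of -0.20 ± 0.14 and -0.20 ± 0.36 (adjusted p = 0.244 and 0.68). In cartilage these 3 genes had 0 to 13 counts per library and failed the filter on low counts, so a difference was not detectable at this depth. Over time Pfkfb1 fell in both genotypes by a like amount, 1.05 ± 0.29 in control and 1.06 ± 0.29 in cKO, and Pfkfb2 rose by 0.28 ± 0.08 and 0.25 ± 0.08. The Pfkfb2 calls were lost without day 0 control replicate 3 (0.24, adjusted p = 0.0603) in control, and without day 0 cKO replicate 2 or 3 (0.24 each, adjusted p = 0.0584 and 0.0608) or day 3 cKO replicate 3 (0.17, adjusted p = 0.109) in cKO, where it was also lost without the low-count filter (0.24, adjusted p = 0.057). Pfkfb4 changed by 0.29 ± 0.17 and 0.26 ± 0.17, which did not pass, although it passed in control without control replicate 1 of day 3 (0.43, adjusted p = 0.0127).

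Taking the day change as a whole, 6 of the 10 genes passed in control cultures, against 56.9% of 14909 genes: 2 higher and 4 lower, against 28.1% and 28.8%. In cKO cultures 9 passed, against 62.2%: 6 higher and 3 lower, against 32.4% and 29.8%. The groups of the 2 days did not overlap for 6 genes in control and 9 in cKO, against 64% and 62.5% of all genes. Day, BMP2, depth and count table changed together, so none of them can be told apart as a source of a day change. The genotype effect differed between the days for 5 genes, Hk1, Hk2, Gpi1, Pfkl and Pfkfb3, against 16.8% of all genes. In these 5 the cKO value relative to control was higher at day 3 and in 0 lower, against 9.94% and 6.89% of all genes, and DESeq2 called 6 higher and 0 lower. It differed for 7 genes, all higher, without cKO replicate 4 of day 3, where 4051 of all genes were called, against 2509. In cartilage, a difference of the genotype effects between females and males was called for 0 of the 7 genes by edgeR and by DESeq2, and 0 had an unadjusted p under 0.05. Of all genes 0.0114% were called. The lowest unadjusted p was 0.0901 for Pfkfb3, at -0.47 ± 0.26, with 2 samples per sex and genotype.

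Levels of different genes were compared per kilobase of exon, in the cultures alone, because cartilage libraries read only the 3′ end. In untreated control cultures the order by CPM per kb of all annotated exons was Pfkl (30.5), Gpi1 (26.3), Hk2 (20.8), Pfkm (16.6), Hk1 (10.6), Pfkfb3 (8.60), Pfkp (4.32), Pfkfb2 (2.01), Pfkfb4 (0.740) and Pfkfb1 (0.697), and only the last 2 overlapped in their libraries. In untreated cKO cultures Gpi1 led with 32.8, followed by Pfkl with 15.6 and Pfkm with 10.1, which overlapped with Hk2 at 9.86. At day 3 Pfkm led in control with 28.1 CPM per kb, overlapping with Gpi1 at 25.3, which in turn overlapped with Pfkl at 21.0. In cKO the leader was Gpi1 with 38.2, above Pfkl with 26.9 and Pfkm with 22.9, which overlapped each other. The order depends on the length used. With the length of the principal transcript, a choice added after the lengths were seen, Gpi1 (58.9) stood above Pfkl (54.5) in untreated controls, Hk1 (23.4) overlapped with Hk2 (22.5), and Pfkfb3 (14.04) overlapped with Pfkp (13.95). With that length the lead at day 3 in control was taken by Gpi1 (56.5), above Pfkl (37.6) and Pfkm (32.5), which overlapped each other.

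The make-up of each family was compared between genotypes as shares of its RNA. At day 0, of hexokinase RNA per kb, Hk2 made up 66.3% ± 1.1 (SD, n = 3) in control and 52.7% ± 1.7 in cKO, with no overlap. The Pfkl share was 59.3% ± 0.7 in control and 47.2% ± 2.3 in cKO, and the Pfkp share 8.40% ± 0.23 and 22.03% ± 1.96. The difference, cKO minus control, was 13.6 percentage points for Pfkp and -12.1 for Pfkl, and Pfkm made up 32.3% ± 0.6 and 30.8% ± 1.2. Pfkfb3 made up 71.3% ± 2.4 of PFKFB RNA in control and 59.2% ± 1.1 in cKO, and Pfkfb2 16.7% ± 1.3 and 25.6% ± 1.2. Of the 8 shares compared at day 0, counting Hk1 and Hk2 once, 7 did not overlap between genotypes. Pfkm did so narrowly, with 31.92% as the lowest control and 31.88% as the highest cKO value. Shares of 1 family add up to a whole and are not independent, and the levels of 70.4% of all genes did not overlap at day 0. The exact permutation test, two-sided, cannot give less than p = 0.1 with 3 against 3 samples, and each of these 7 shares gave that value.

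At day 3 Hk2 made up 42.1% ± 5.3 (SD, n = 4) of hexokinase RNA in control and 37.3% ± 0.9 in cKO, with overlap (exact permutation p = 0.171). The gap between genotypes was 4.74 percentage points for Hk2 and 4.10 for Pfkp, against 13.6 for each at day 0, and the change of the gaps between the days was not tested. Within the phosphofructokinases, Pfkm made up 54.2% ± 3.7 in control and 41.98% ± 3.42 in cKO, and Pfkp 5.44% ± 0.71 and 9.54% ± 0.36, without overlap. Both gave p = 0.0286 in the exact permutation test, the smallest that 4 against 4 samples allow. Pfkl made up 40.3% ± 4.1 in control and 48.5% ± 3.7 in cKO, with overlap (exact permutation p = 0.0571). The Pfkfb3 share was 64.7% ± 3.9 in control and 73.6% ± 7.0 in cKO and overlapped (exact permutation p = 0.0857). Cartilage shares, taken per count, were 73.1% ± 3.1 and 74.4% ± 7.7 for Hk2 (exact permutation p = 0.743), 44.1% ± 5.3 and 50.65% ± 2.30 for Pfkl, 44.9% ± 5.6 and 40.7% ± 3.0 for Pfkp and 93.9% ± 1.6 and 89.9% ± 4.4 for Pfkfb3, with overlap for each of these. After adjustment over all 24 shares, 0 passed, the lowest adjusted p being 0.171. The size of the Pfkp shares depends on the length used for Pfkp, whose annotated exons cover 13401 bases and whose principal transcript has 4145: per principal transcript its share at day 0 was 15.9% in control and 37.2% in cKO. The Pfkl difference at day 0 was -18.0 percentage points per principal transcript and -20.02 without division by length, against -12.1, and at day 3 it was 4.90 and 3.25, against 8.14. Per principal transcript Hk2 made up 48.98% of hexokinase RNA at day 0 in control and 35.3% in cKO, so that Hk1 held the larger share in both groups.

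**Figure D3:**
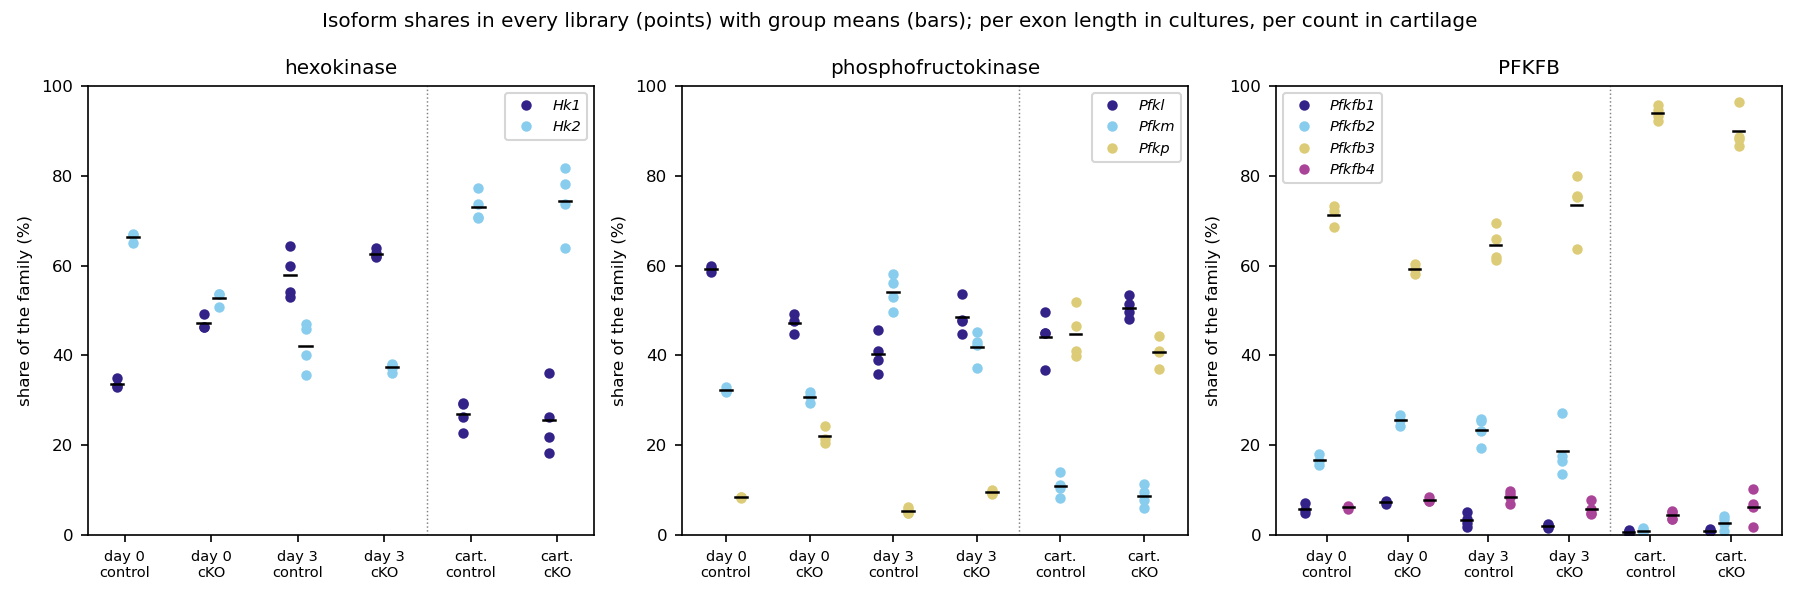
Share of each isoform in its family (y axis, percent) in every library of the 6 groups (x axis), points by library and bars at the group means; cultures per kilobase of exon, cartilage per count. At day 0 the Pfkp points lie near 8.40% in control and near 22.03% in cKO, and the Hk2 points near 66.3% and near 52.7%.

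Around these genes, the rest of the pathway was read from lists of known members. Of the 14 genes of lower glycolysis and lactate export, 10 fell and 2 rose in untreated cKO cultures, against 31.6% and 33% of all genes, with a median log2 fold change of -0.41. The largest changes were in Aldoc (-1.46 ± 0.27), Ldhb (-1.05 ± 0.08) and Pgk1 (-0.78 ± 0.05), an aldolase, a lactate dehydrogenase subunit and phosphoglycerate kinase. At day 3 it was 8 that rose and 2 that fell, against 25.5% and 22.6% of all genes, with a median of 0.59. Pgam2 (5.08 ± 0.45) and Eno3 (2.67 ± 0.53), the mutase and enolase of muscle, led. The lactate exporter Slc16a3 (2.18 ± 0.31) followed. From day 0 to day 3 the log2 fold change of Pgam2 was 5.57 ± 0.48 in cKO cultures. That of Eno3 was -2.24 ± 0.46 in control cultures, so a fall in control entered its difference at day 3. The part of the muscle markers reported above in these differences was not tested. Without cKO replicate 4 of day 3 it was 9 that rose and 2 that fell at day 3, where 7808 of all genes were called, against 6693. In cartilage 2 of the 11 genes tested fell, Eno1 (-0.84 ± 0.14) and Pkm (-0.46 ± 0.13), and 0 rose, against 3.04% and 3.15% of all genes, while DESeq2 called 1 lower and 0 higher. The genotype effect differed between the days for 8 of 14, each higher at day 3, against 9.94% higher and 6.89% lower of all genes. Without cKO replicate 4 of day 3 it differed for 12, where 4051 of all genes were called, against 2509. Aldoa is listed under 2 gene identifiers, of which the one with the higher level was used.

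Glucose transporters, at the entry to the pathway, showed 1 rise and 1 fall at day 0: Slc2a1, the main transporter of chondrocytes, fell by 0.85 ± 0.03 and Slc2a3 rose by 0.68 ± 0.12. Of the 2 that could be tested at day 3, 0 passed by edgeR or DESeq2, and 0 had an unadjusted p under 0.05. Slc2a1 had 0.00 ± 0.16 in cartilage. Among enzymes that undo or bypass these steps, the glucose 6-phosphatase G6pc3 fell in all 3 settings, by 0.83 ± 0.05, 0.75 ± 0.09 and 0.87 ± 0.19. The fructose bisphosphatases Fbp2 and Fbp1 changed at day 0 by 3.87 ± 0.25 and -1.95 ± 0.32. Tigar, which breaks down fructose 2,6-bisphosphate, rose at day 3 by 0.64 ± 0.14. Of the other glucose kinases only Adpgk was high enough to test, and it fell by 0.42 ± 0.03 at day 0 and 0.30 ± 0.10 at day 3, with -0.03 in cartilage, which did not pass.

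Of 10 genes on the branches that leave at glucose 6-phosphate and fructose 6-phosphate, 4 rose and 5 fell at day 0, where 64.5% of all genes passed, and 5 rose and 2 fell at day 3, where 48.1% did. In cartilage 0 of 9 passed by edgeR or DESeq2, against 6.19% of all genes by edgeR, with 0 at an unadjusted p under 0.05. Gfpt2 and Gfpt1, which draw fructose 6-phosphate into amino sugars, fell at day 0 by 1.73 ± 0.05 and 0.98 ± 0.05 and at day 3 by 1.77 ± 0.40 and 0.89 ± 0.10. Of 10 HIF targets outside glycolysis, 2 rose and 6 fell at day 0, against 33% and 31.6% of all genes. At day 3, 4 rose and 2 fell, against 25.5% and 22.6%, while 0 of 8 passed in cartilage by edgeR or DESeq2, with 1 at an unadjusted p under 0.05. Without cKO replicate 4 the day 3 count was 6 higher and 2 lower, where 7808 of all genes were called, against 6693. Bnip3, a mitophagy gene, and Pdk1, which restrains pyruvate dehydrogenase, fell at day 0 by 1.49 ± 0.10 and 1.12 ± 0.10. Adm, which codes for adrenomedullin, and Egln3, a HIF prolyl hydroxylase, rose on both days, by 1.67 ± 0.14 and 0.95 ± 0.11 at day 0 and by 2.09 ± 0.23 and 3.17 ± 0.28 at day 3. The list medians were -0.42 at day 0, 0.53 at day 3 and -0.24 in cartilage, next to -0.23, 0.14 and -0.55 for the 10 genes of upper glycolysis.

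**Figure D4:**
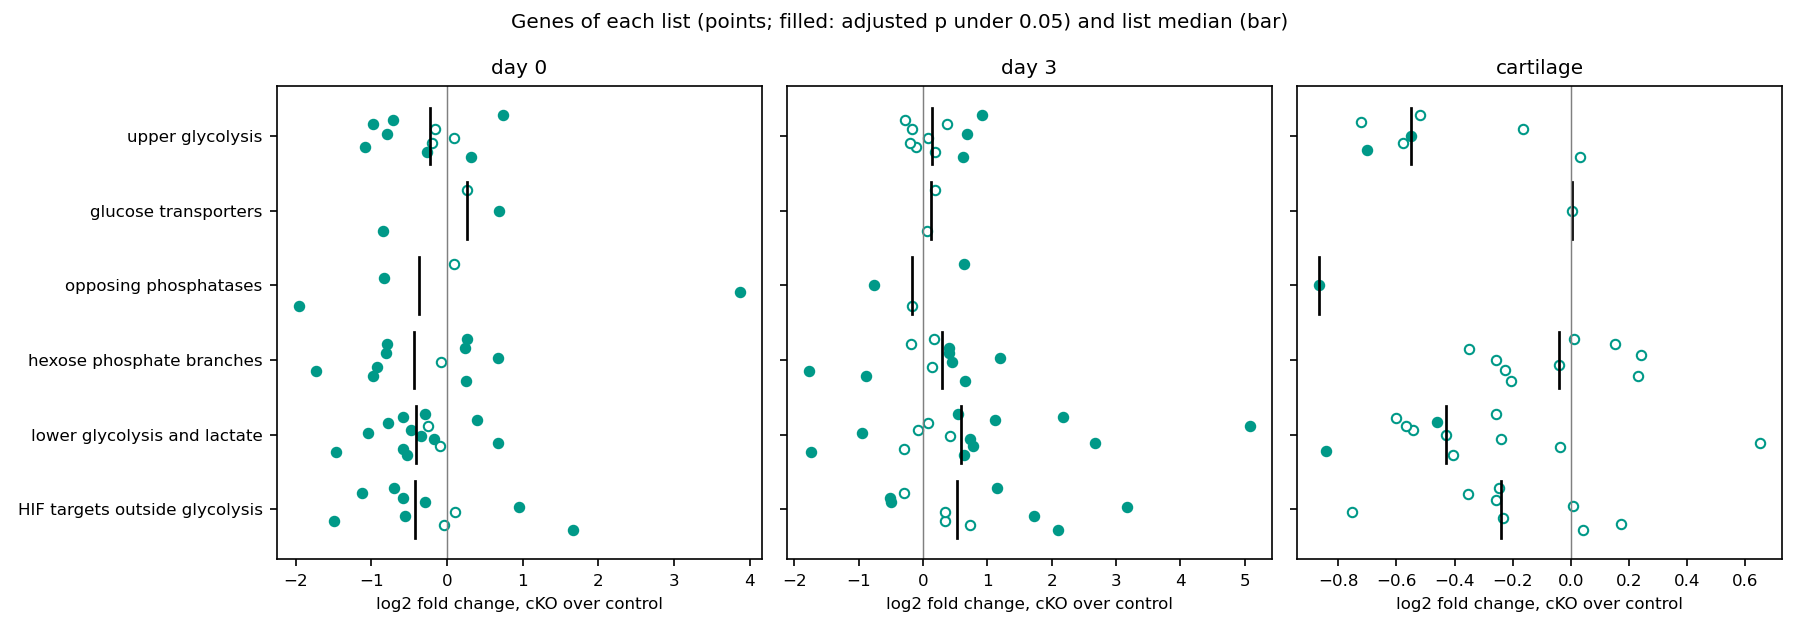
Log2 fold change, cKO over control (x axis), of the genes of 6 lists (y axis) at day 0, at day 3 and in cartilage, with the list median as a bar; filled points passed at an adjusted p under 0.05, and the x axes differ. Upper glycolysis, lower glycolysis and the HIF targets have medians of -0.23, -0.41 and -0.42 at day 0 and of 0.14, 0.59 and 0.53 at day 3.

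The genes whose level ran most like each of these over the 14 cultures were sought among 12230 genes by Pearson's r of log2(CPM + 1). These values are descriptions over libraries that fall into 4 groups, so genes that differ between the groups are favoured. Pfkl ran closest to Bnip3 (r = 0.97), Rnf7 (0.93) and Egln1 (0.92), and Pfkfb3 to Aldoa (0.93), Rnf213 (0.91) and Ndufa4l2 (0.88). Hk2 ran closest to Magel2 (0.98), Insig1 and Msmo1 (0.97 each), the last 2 being genes of sterol synthesis and its control. Pfkm ran with Fmod (0.99), which codes for fibromodulin, a collagen-binding matrix protein, Pfkp with Tagln2 (0.98), Gpi1 with Ankrd1 (0.98) and Hk1 with Tlr2 (0.96). For Pfkfb1, Pfkfb2 and Pfkfb4 the closest were Prcc (0.96), Snx6 (0.92) and Zfp397 (0.87).

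Some of these genes overlap their neighbours. By annotation, exons of Hk1 overlap the antisense gene Hk1os, those of Gpi1 overlap Gm26762, those of Pfkm overlap Senp1 and Gm26513, those of Pfkp overlap Pitrm1, those of Pfkfb1 overlap Apex2, and those of Pfkfb2 overlap Yod1 and Gm29427. Whether counting used the strand is not given in the sources used here, so reads from these stretches cannot be assigned with certainty. Hk2, Pfkl, Pfkfb3 and Pfkfb4 have no such exon overlap.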

How the data were processed

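RNA was measured in 14 cultures with a directional kit and in 8 cartilage samples with BRB-seq, a barcoded 3′ method with molecular identifiers, per the labels' protocols. For the cultures the authors deposited estimated counts per gene (rounded here), and for cartilage whole-number counts, the main values, and estimated counts, an alternative. The submitters' processing notes name GRCm38 and, for cartilage, UMI-tools 1.1.1, Trim Galore 0.6.7, HISAT2 2.2.1, featureCounts 2.0.1 and DESeq2 1.34.0. How the culture reads were aligned and counted is not given in the sources used here. Culture symbols came from identifiers, of which 34582 of 34866 matched; exon positions came from GENCODE M21. 0 per-sample columns were unused.

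Tests were edgeR 4.0.16 quasi-likelihood fits in R 4.3.3 with TMM scaling after filterByExpr (10 counts, 15 in total). P-values were adjusted by Benjamini and Hochberg's method over every gene tested, and calls were made at an adjusted p under 0.05. Each genotype effect came from a fit of the samples it compares (sex was added as a term for cartilage), and the day changes and their difference on all 14 cultures, so they need not add up exactly. Values after ± are standard errors for log2 fold changes and SD for shares. The script was tested on simulated data. Alternatives were DESeq2 1.42.0, other scaling, no filter, a replicate block, the estimated counts and leaving out each library. The 10 genes and the lists were chosen with earlier results of these data known. The text names these 10, genes among the 3 largest called changes per list and setting, and the 3 genes most like each (pseudocount 1 CPM).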

Additional observations from a re-analysis of the deposited data

Results flagged for a closer look

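The difference of the genotype effects between day 3 and day 0 passed for Hk1 (0.4294 on the log2 scale), Hk2 (0.9552), Gpi1 (0.2831), Pfkl (1.326) and Pfkfb3 (1.4545), by the interaction term of the fit over 14 cultures.

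In 3 of 40 groups of 4 libraries checked, 1 library lay far from the other 3, where chance gives about 1 in 20. Pfkp stood at 53.333 CPM in cKO replicate 4 of day 3, against 75.3 to 76.4 CPM in the others. Pfkfb4 stood at 3.0161 CPM in control replicate 1 of day 3, against 4.72 to 4.98 CPM. Pfkfb1 stood at 1.6793 CPM in cKO replicate 1 of cartilage, against 0.861 to 0.892 CPM, which are 2 counts against 1.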

How the results depend on the processing

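Over the settings that changed the tool, scaling, filter, samples or table, the 7 calls at day 0 kept their direction and side, as did those for Gpi1 and Pfkp at day 3. The number of genes called at day 0 was 6260 when all 14 cultures shared 1 fit, against 10023. At day 3, 1 gene was called lower (Pfkm) under DESeq2, RLE scaling and the 14-culture fit, against 0. In cartilage the genes called lower numbered 0 under DESeq2, 5 without the filter and 4 in the estimated counts, against 2, and all genes called 357 under DESeq2 and 1044 without the filter, against 544. In the difference between sexes 2 genes were called in the estimated counts, against 1. The difference in the Pfkp share at day 0 was 23.1 percentage points without division by length and 21.3 per principal transcript, against 13.6, and at day 3 it was 7.68 and 7.03, against 4.10. Values near 0 turned in sign: Gpi1 in cartilage without the filter (-0.0065) and in the estimated counts (-0.025), the Pfkfb1 difference between the days under DESeq2 (0.0001) and the Hk2 difference between sexes in the estimated counts (-0.0493). The cause of these changes was not tested.

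Leaving out 1 library gave 0 to 1 genes called lower at day 3 (1 without cKO replicate 3 or 4). In cartilage it gave 0 to 3 called lower (0 without control replicate 3 or cKO replicate 3, 1 without control replicate 2 or cKO replicate 4) and 362 to 630 genes in all (362 without cKO replicate 4). Over time in control it gave 1 to 3 higher (1 without day 0 control replicate 3). A difference between the days was called for 1591 to 4051 genes (1591, 1668 and 1604 without day 0 control replicate 2 or 3 or cKO replicate 3, 4051 without day 3 cKO replicate 4), against 2509. Values that turned in sign ranged from -0.1987 to 0.0006 (Hk2) and -0.4077 to 0.0166 (Pfkfb1) at day 3, from -0.0854 to 0.0976 (Gpi1) in cartilage, and from -0.2157 to 0.2204 (Pfkfb1), -0.0951 to 0.012 (Pfkfb2) and -0.1704 to 0.081 (Pfkfb4) for the difference between the days.

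Same-numbered libraries deviated together with r from -0.0634 to 0.14 at day 0, -0.145 to -0.064 at day 3 and -0.0792 to 0.177 in cartilage. With so few libraries per group, these values cannot settle whether same-numbered samples were paired. In cartilage the deviations were taken within genotype and sex, with 2 samples each. There replicates 1 and 2 share 1 value (0.177), and replicates 3 and 4 the other. With the replicate block 9724 genes were called at day 0, 5391 at day 3 and 576 in cartilage. Calls were not reached with the replicate block for Pfkfb3 at day 3 (0.64, adjusted p = 0.122), Pfkl over time in control (-0.51, 0.0546) and the Gpi1 difference between the days (0.28, 0.0511), and no other call of the 10 genes changed.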
